A study of Mus musculus with 2 samples.

Results

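The 43 genes described here encode parts of the primary cilium: 12 subunits of the IFT-B complex, 6 of the IFT-A complex, 4 subunits of the motors that carry them, 7 BBSome subunits with their recruiting GTPase Arl6, 6 transition zone proteins, and 7 proteins of the ciliary membrane, the Hedgehog pathway or the basal body. They were chosen by symbol for their known place in the organelle; no measured value enters the rule, although earlier results of these data were known when the list was drawn up. All 43 were found among the 43346 annotated genes of the tables. Total RNA longer than 200 nucleotides was sequenced from hindbrains of B6NCrl mouse embryos at 10.5 days. There was 1 group of 2 libraries with no mutant, treatment or other stage. Replicate 1 was a pool of 69 embryos and replicate 2 a pool of 51, both sexes mixed, with 10 ng of RNA and added spike-in RNAs in each. The labels call the pools separate biological replicates, under a donor identifier that they share. A comparison between conditions did not exist in this design, so what follows gives levels, their spread between the pools, and features of the genes, with no test over samples.

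The primary cilium is a single, non-motile projection built on a modified centriole, the basal body. Intraflagellar transport (IFT) moves cargo along its microtubules: the kinesin-driven IFT-B complex toward the tip, and the dynein-driven IFT-A complex back to the base, while the BBSome carries membrane proteins out. The transition zone at the base gates entry. In the embryonic neural tube, progenitor cells carry such a cilium at their ventricular surface, and vertebrate Hedgehog signalling passes through it, since Smoothened and the Gli proteins are handled there.

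The libraries held 38170090 and 36382245 expected counts in annotated genes, an expected count being an estimate that shares reads between the genes and transcripts they fit. The cilium genes held 0.141% and 0.144% of these counts. Of 8 hindbrain markers, 7 were detected in both libraries, with summed levels of 224.7 and 175.1 TPM, an abundance corrected for transcript length. All 8 neural progenitor markers were detected. Marker sums differed between the pools. The 8 neuronal markers summed to 1845 TPM in replicate 1 and 1147 in replicate 2, and all 8 had a lower count ratio in replicate 2. The 6 choroid plexus markers summed to 289.9 and 62.08 TPM, most of it from Ttr, with Kl listed at 0.01 and 0. Markers of muscle and heart were the low ones, at 8.8 and 31.02 TPM in all. Red blood cell markers summed to 12380 and 14240 TPM and mesenchyme markers to 612.9 and 519.8 TPM. The levels of the cilium genes are therefore those of all cells in the pools together. In such bulk samples, fewer cells of a type and less RNA per cell cannot be told apart.

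Many cilium genes carry an X-box before their start, the binding motif of RFX transcription factors, so promoter windows of 250 bases before to 50 bases after the start were searched (RefSeq, GRCm38.p6). The search used GTNNCC, then 0 to 3 bases, then GGNNAC; the arms are reverse complements of each other, so a single search covers both strands. Of the 43 genes, 38 had a window (Dync2li1, Ift80, Ift81, Ift122 and Tmem67 had none), and 9 of these 38 (23.7%) held a match, against 4.38% of all 27025 genes with a window and 5.84% of the 9912 protein-coding ones detected in both libraries. The stricter form GTTNCC with GGNAAC was found in 3 of the 38 (7.89%), in Bbs7, Ift57 and Mks1, against 0.936% of all genes. A match is a run of letters and not a measured binding site. The matches before the RefSeq start are shown with 8 bases on each side, on the gene's strand, the motif in capitals.
Bbs7 (chr3:36613489-36613518, minus strand): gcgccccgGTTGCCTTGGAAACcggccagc
Ift57 (chr16:49699226-49699254, plus strand): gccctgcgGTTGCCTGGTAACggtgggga
Mks1 (chr11:87853183-87853212, plus strand): gcgtctccGTTGCCAGGGGAACgaggcacc
Ift57 (chr16:49699199-49699228, plus strand): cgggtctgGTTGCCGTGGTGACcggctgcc
Ift22 (chr5:136908079-136908108, plus strand): ctgtcaggGTTTCCTGGGCTACtgcgcagc
Ift22 (chr5:136908109-136908138, plus strand): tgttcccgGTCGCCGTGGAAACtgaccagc
Wdr19 (chr5:65199654-65199683, plus strand): tttgcacgGTCTCCTGGGTGACgagaacgc

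The first 3 lines hold the stricter form. In Bbs7 the motif spanned bases -121 to -108, counted from the RefSeq start (base 0). The stricter motif of Ift57 lay at -60 to -48, with a spacer of 1 base where the other printed motifs have 2, and that of Mks1 at -24 to -11. The GENCODE gene starts differ for some genes. Counted from them, the motif of Bbs7 lay at -33 to -20, and the stricter motif of Ift57 at 1 to 13, just inside its longest transcript, with the other Ift57 match at -26 to -13. Ift22 and Ift57 had 2 matches each that did not overlap. In Bbs1, Bbs4, Tmem216 and Tmem231 the match began within 23 bases after the RefSeq start, in transcribed sequence. From the GENCODE start it began at base 2 in Bbs1, 23 in Bbs4, 494 in Tmem216 and 79 in Tmem231. The genes with a match came from 4 of the 6 groups: IFT-B, IFT-A, the BBSome and the transition zone. Their levels, taken up next, spanned Bbs1 at 3.73 and 3.26 TPM to Ift22 at 72.44 and 65.5 TPM.

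All 43 cilium genes were detected, which meant 1 TPM or more in each library, where 12634 of all 21474 protein-coding genes (58.8%) were. Their levels were moderate. The median of the 43 was 14.2 TPM in replicate 1 and 15.8 in replicate 2, with an interquartile range of 10.3 to 30.9 TPM. Over the 12634 detected protein-coding genes the median was 19.1 and 20.0 TPM and the interquartile range 7.05 to 52.1 TPM. The cilium genes were the less scattered: the SD of their log2 levels was 1.34, against 2.07 over the detected genes. The highest, Ift27, was still 96-fold above the lowest, Gpr161.

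**Figure D1:**
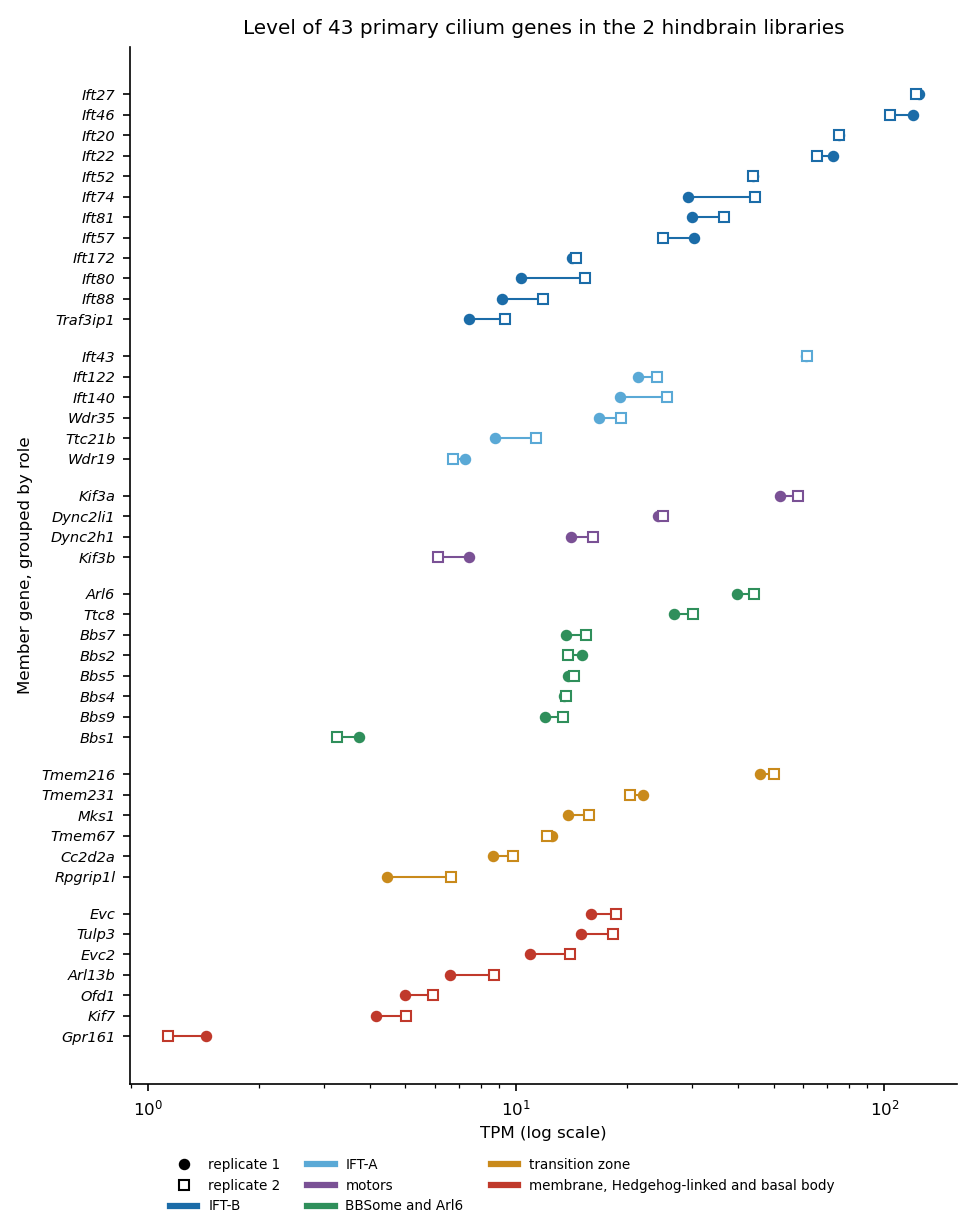
TPM of each of the 43 genes on a log scale (x axis), genes grouped by role (rows); filled circles are replicate 1, open squares replicate 2, and the line joins them. The IFT-B genes reach from 8.38 TPM (Traf3ip1) to 123 TPM (Ift27), and Gpr161 lies lowest at 1.28 TPM.

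The IFT-B complex, the larger train component, had the highest group median, 30.2 TPM in replicate 1 and 40.3 in replicate 2 (35.1 ± 7.15, the median of the genes' mean levels, with the SD of the 2 library medians, n = 2). Its highest gene was Ift27, a Rab-like GTPase subunit that links the train to the BBSome (gene on chromosome 15, 78159463 to 78174107, minus strand, mm10). Ift27 measured 124.52 TPM in replicate 1 and 122.15 in replicate 2 (123 ± 1.68 TPM, SD, n = 2), above 89.8% of detected protein-coding genes. Ift46, a core subunit, followed at 119.49 and 103.8 TPM. The order of this pair was the same in both pools. Over transcripts of at least 500 bases only, which leaves out a 229-base one, Ift46 was at 73.8 TPM, beside Ift20 and Ift22. Ift20, which also works at the Golgi, measured 75.36 TPM in each library, and the GTPase-like Ift22 measured 72.44 and 65.5 TPM. Ift52, a core subunit, was at 43.89 TPM in each library.

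Ift74 and Ift81 are partners that together bind tubulin. Ift74 measured 29.24 TPM in replicate 1 and 44.66 in replicate 2. Ift81 measured 29.94 and 36.72 TPM, so the pair was level in replicate 1 and Ift74 the higher in replicate 2. The counts of Ift81 were nearly equal, 1363 and 1339 (log2 ratio 0.05 once scaled to library size), while its mean transcript length was 1783 bases in replicate 1 and 1603 in replicate 2. The peripheral subunit Ift57 measured 30.46 and 25.05 TPM. The lowest of the complex were Ift172 (14.15 and 14.5 TPM), Ift80 (10.32 and 15.36 TPM), Ift88 (9.14 and 11.79 TPM) and Traf3ip1, also known as Ift54 (7.44 and 9.31 TPM). Ift88, whose loss is known to abolish cilia, was thus among the lowest RNAs of its complex. The order of Ift172, Ift80 and Ift88 depended on the pool: Ift80 was below Ift172 in replicate 1 and above it in replicate 2.

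The IFT-A complex, which returns cargo and, with Tulp3, brings membrane receptors in, had a median of 18.0 and 21.8 TPM. Ift43 stood apart at 61.13 and 61.52 TPM. The core subunits Ift122 (21.46 and 24.19 TPM) and Ift140 (19.19 and 25.63 TPM) and the peripheral Wdr35 (16.83 and 19.31 TPM) lay close together, and Ift122 and Ift140 changed places between the libraries. Ttc21b measured 8.76 and 11.32 TPM. Wdr19, the other core subunit, was the lowest at 7.28 and 6.73 TPM, 8.75-fold below Ift43 by the means.

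Of the motor subunits, Kif3a and Kif3b form the heterodimer of the anterograde kinesin, yet their RNAs differed 8.13-fold by the means. Kif3a measured 52.14 and 58.11 TPM and Kif3b 7.43 and 6.13 TPM. Transcripts annotated as protein-coding held 69.1% and 64.6% of the Kif3a level and 100% of the Kif3b level, so over coding transcripts the difference is smaller. Their expected counts were closer, 2622 and 2349 for Kif3a and 1112 and 822 for Kif3b, since the mean transcript length was 1863 bases for Kif3a and 5635 for Kif3b. The retrograde dynein's light intermediate chain Dync2li1 measured 24.31 and 24.99 TPM, and its heavy chain Dync2h1 measured 14.1 and 16.2 TPM.

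Of the 8 BBSome genes, 5 formed a narrow band. Bbs7 (13.63 and 15.44 TPM), Bbs2 (15.07 and 13.86 TPM), Bbs5 (13.81 and 14.39 TPM), Bbs4 (13.48 and 13.65 TPM) and Bbs9 (11.95 and 13.44 TPM) all lay between 11.95 and 15.44 TPM, and their order differed between the pools. Over transcripts of at least 500 bases only, Bbs2 was at 12.3 and 10.4 TPM, below that band in replicate 2, and Bbs5 at 12.2 and 13.3 TPM. Ttc8, also known as Bbs8, was higher at 26.85 and 30.25 TPM. Arl6, the GTPase that recruits the coat to membranes, was the highest of the group at 39.75 and 44.34 TPM. Bbs1, the subunit that binds Arl6, was the lowest at 3.73 and 3.26 TPM, 12-fold below Arl6 by the means. The group's median was 13.7 and 14.1 TPM.

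The transition zone genes had a median of 13.2 and 14.0 TPM. The membrane protein Tmem216 was the highest at 45.99 and 50.27 TPM, followed by Tmem231 at 22.07 and 20.41 TPM. Mks1 (13.84 and 15.79 TPM), the receptor-like Tmem67 (12.5 and 12.12 TPM) and Cc2d2a (8.65 and 9.8 TPM) kept their order in both pools. Rpgrip1l, a scaffold of the zone, was the lowest at 4.46 and 6.66 TPM.

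The 7 membrane, Hedgehog-linked and basal body genes had the lowest group median, 6.61 and 8.72 TPM. Evc measured 15.99 and 18.71 TPM and its partner Evc2 10.89 and 14.0 TPM; together they relay the signal of Smoothened. Tulp3, the adaptor for receptor entry, measured 14.96 and 18.27 TPM. The ciliary GTPase Arl13b measured 6.61 and 8.72 TPM, the centriolar protein Ofd1 4.98 and 5.94 TPM, and the tip kinesin Kif7, which regulates Gli proteins, 4.16 and 5.03 TPM. These 6 kept their rank in both libraries, each being higher in replicate 2.

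Gpr161, a ciliary receptor that holds Hedgehog signalling down, was the lowest of the 43 at 1.44 and 1.13 TPM (1.28 ± 0.219, SD, n = 2), above 0.974% of detected protein-coding genes. It rested on 264 and 186 expected counts over a transcript of 6862 bases.

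Between the pools the cilium genes were close. Ratios were taken as replicate 2 over replicate 1 from counts scaled by the trimmed mean of M-values (TMM), on the log2 scale; TPM itself was higher in replicate 2 by a median of 0.08 over the detected protein-coding genes. The median count ratio of the 43 was 0.03, with 22 genes above 0 and 21 below, and the median over the 12634 detected protein-coding genes was 0.00. None of the 43 was at least 1.5-fold higher in replicate 2, where 580 of 14385 genes that reached a CPM (count scaled to library size) of 1 in each library (4.03%) were. None was at least 1.5-fold lower, where 1352 of the 14385 (9.4%) were. The median size of the ratio regardless of sign was 0.18 for the cilium genes and 0.20 for the detected protein-coding genes. Counting intervals of 95%, which cover counting error only, lay wholly above 0 for 16 of the 43 and wholly below for 12, 65.1% in all, and 66.9% of the detected protein-coding genes had such an interval. With 1 library on each side, no ratio has a replicate check.

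The largest ratios belonged to IFT-B. Ift74 had 1525 and 2107 expected counts, a log2 ratio of 0.54 (counting interval 0.45 to 0.64). Ift80 had 1019 and 1345, a ratio of 0.48 (0.36 to 0.60). At the other end, Gpr161 had a ratio of -0.42 (-0.71 to -0.15), and Kif3b, with 1112 and 822 counts, a ratio of -0.36 (-0.49 to -0.23). The counting intervals of Ift74, Ift80 and Gpr161 reach past the 1.5-fold line. Within IFT-B the directions were mixed: Ift74, Ift80, Ift88 (0.31) and Traf3ip1 (0.29) had intervals above 0, whereas Ift46 (-0.27), Ift22 (-0.22), Ift57 (-0.19), Ift27 (-0.11), Ift20 (-0.11) and Ift52 (-0.09) had intervals below it. The summed level of the complex was 566.4 TPM in replicate 1 and 568.1 in replicate 2.

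The membrane, Hedgehog-linked and basal body genes were the group with the most uniform direction. Arl13b (0.25), Evc2 (0.21), Kif7 (0.19), Tulp3 (0.18), Ofd1 (0.18) and Evc (0.17) all had intervals above 0, and Gpr161 was the exception. The largest of these 6 ratios, that of Arl13b, was 1.19-fold. Among the motors, Dync2h1 (0.28, with 2118 and 2432 counts) went the other way from Kif3b. Of the IFT-A genes, Ttc21b (0.23), Ift140 (0.18) and Wdr35 (0.14) had intervals above 0 and Wdr19 (-0.19) below. The BBSome genes were again the closest, with a median size of 0.07, although Bbs1 (-0.27) and Bbs2 (-0.22) had intervals below 0 and Ttc8 (0.12) above. In the transition zone Rpgrip1l (0.32) and Tmem231 (-0.19) had intervals on opposite sides.

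**Figure D2:**
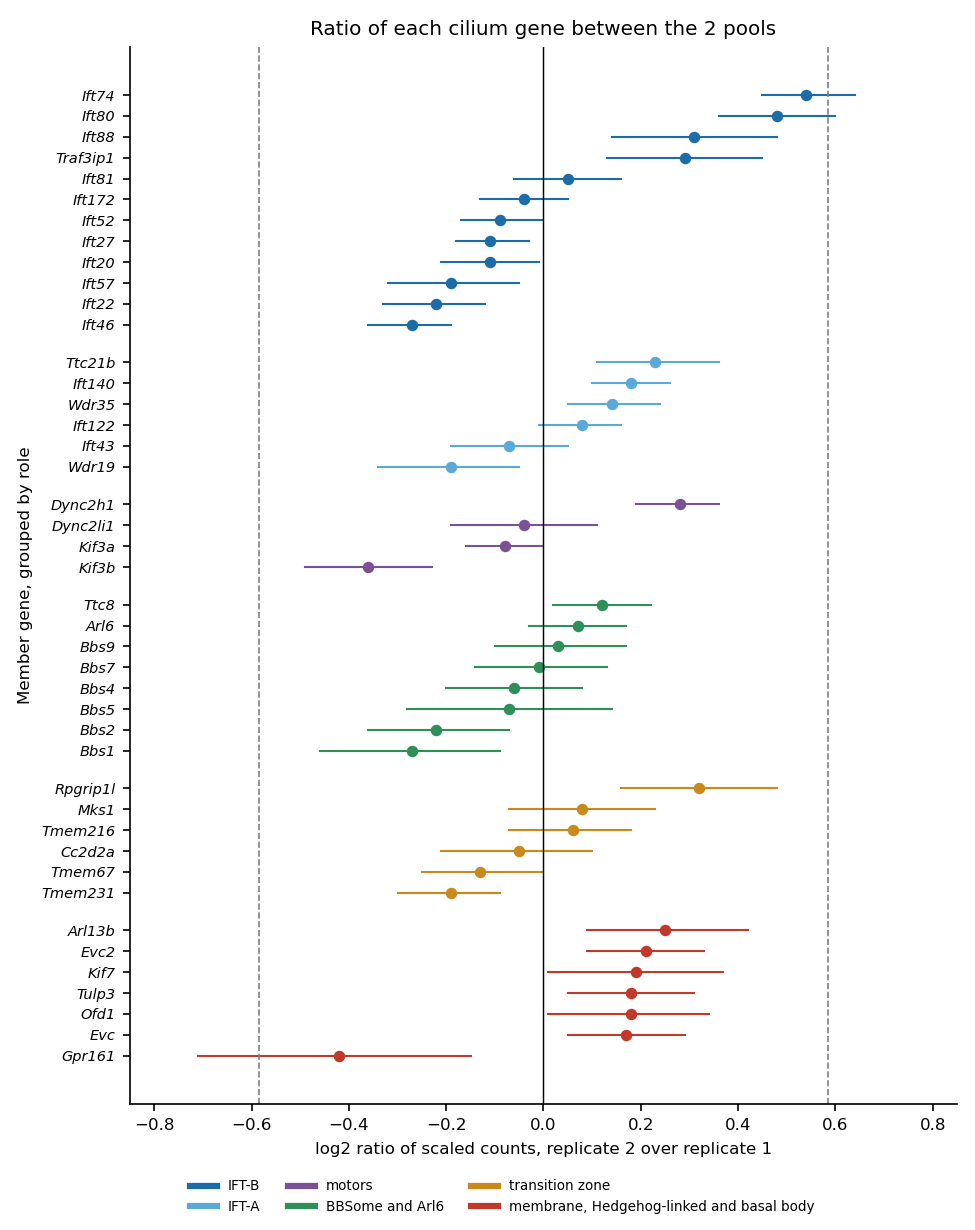
Log2 ratio of TMM-scaled counts, replicate 2 over replicate 1 (x axis), for each of the 43 genes (rows, grouped by role); bars are 95% counting intervals and dashed lines mark 1.5-fold in each direction. All 43 points lie between the dashed lines, from -0.42 (Gpr161) to 0.54 (Ift74).

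The levels followed transcript length closely. Over the 43 genes, log2 level and log2 mean transcript length were correlated at -0.82 (Pearson) and -0.79 (Spearman), and within the 12 IFT-B genes -0.86 and -0.82. Over the 12634 detected protein-coding genes the same values were -0.33 and -0.31, and the median lengths were alike at 2689 and 2525 bases. The points are genes of the same 2 libraries, length enters TPM as its divisor, and genes are not independent replicates, so these are descriptions. Without the divisor, expected counts and length had a Pearson r of -0.25 over the cilium genes and 0.12 over the detected genes. By group this r ran from -0.86 (7 membrane, Hedgehog-linked and basal body genes) to 0.27 (6 IFT-A genes), with -0.31 in IFT-B.

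The short members carried the top of the range. The 9 cilium genes with a mean length under 1500 bases had a median of 61.3 TPM (range 14.1 to 123), and 6 of them were above 30 TPM. The 34 longer ones had a median of 13.9 TPM (range 1.28 to 55.1), and 5 were above 30 TPM. Ift43, the shortest at 775 bases, was the fifth highest, and Gpr161, the longest at 6862 bases, the lowest. Bbs5 was the low one among the short genes, with 14.1 TPM at 1159 bases. In replicate 1, counts of the short genes ran from 403 to 3073 and those of the long genes from 264 to 2622, so these ranges overlapped.

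**Figure D3:**
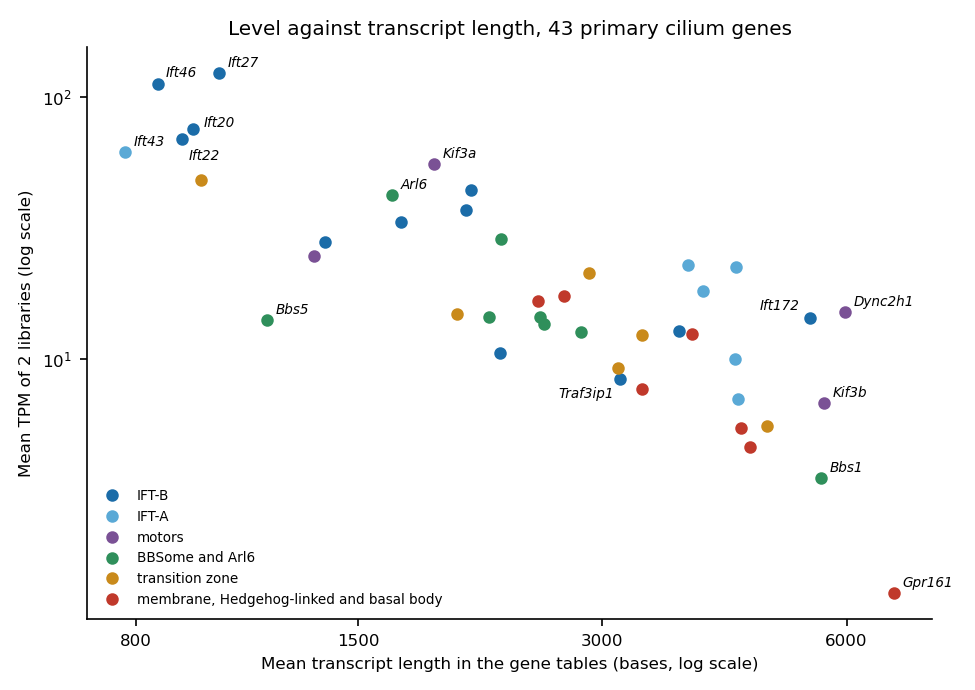
Mean TPM of the 2 libraries (y axis, log scale) against mean transcript length in bases (x axis, log scale), 1 point per cilium gene, coloured by role. Points run from Ift46 and Ift27 at the upper left to Gpr161 at the lower right, with a Pearson correlation of -0.82 over the 43 genes.

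Part of some levels came from short annotated transcripts with few counts. The clearest case was Ift46: a 229-base transcript took 34.5% and 31.6% of the gene's TPM from 144.7 and 103.3 counts, while one of 1317 bases took 45.7% and 47.2% from 1798.9 and 1446.7 counts. Summed over transcripts of at least 500 bases, Ift46 was at 73.8 TPM, 66.1% of its full level. Rpgrip1l was at 3.75 TPM (67.4%), its 404-base transcript resting on 9.8 and 18.0 counts. Bbs2 kept 78.7% and Ift57 84.0% of their levels. With these transcripts left out and length taken from the longest coding transcript, the correlation over the 43 genes was -0.70 (Pearson) and -0.71 (Spearman). This split was chosen after the levels had been seen.

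Where short transcripts took part, TPM ratios and count ratios could differ. Rpgrip1l went from 4.46 to 6.66 TPM with 601 and 709 counts. Ift140 went from 19.19 to 25.63 TPM with 2341 and 2514 counts, and its 343-base transcript had 3.72 TPM in replicate 2 from 22.0 counts and was listed at 0 in replicate 1. The count ratios of Rpgrip1l and Ift140 were 1.24-fold and 1.13-fold.

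Of the 43 genes, 32 had several annotated transcripts and 11 had 1. The transcript with the largest share was the same in both libraries for 30 of the 32, Ift57 and Kif3a being the exceptions. By the mean share of the 2 libraries, the leading transcript was annotated as protein-coding for 41 of the 43. The others were Kif3a, whose 770-base transcript of the class nonsense-mediated decay took 27.4% and 32.4% of TPM, and Cc2d2a, whose leading 1826-base transcript (49.9% and 42.0%) has no class in the annotation used. In replicate 1 a coding Kif3a transcript of 3161 bases led instead, with 29.9% of TPM, and it took 23.3% in replicate 2. Of Kif3a's counts, 1288.9 and 1006.3 lay in this coding transcript, against 259.4 and 305.8 in the 770-base one. For 10 genes no transcript reached 50% in either library, such as Bbs9, whose leading transcript had 27.3% and 36.7%.

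Dync2h1, whose heavy chain is among the largest motor proteins, divided its signal between transcripts of very different length. A coding transcript of 2892 bases took 56.4% and 51.2% of TPM from 600.7 and 561.8 counts. The longest coding transcript, of 14264 bases, took 20.1% and 21.2% from 1082.3 and 1182.0 counts. By TPM the short form led, and by counts the long form did, in both pools.

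Retained-intron transcripts are those annotated with an intron that stays in the RNA. The libraries were of total RNA, and reads from RNA not yet spliced were not told apart from reads of such transcripts. They took at least 10% of TPM in both libraries in 12 of the 43 genes (27.9%), against 17.3% of the detected protein-coding genes. Mks1 had the largest share, 40.0% and 41.6% of TPM, from 24.5% and 24.9% of its counts. Ift20 had 19.3% and 21.1% of TPM from 24.2% and 27.1% of its counts. In Bbs2 the shares were 30.9% and 31.9% of TPM, but only 51.1 and 42.7 counts, 6.0% and 6.15% of the total. By counts, 7 of the 12 genes held at least 10% in both libraries. The share by counts was not computed over the detected protein-coding genes, so this number has no comparison.

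Among these 12 the shares mostly repeated between the pools, as in Ift81 (27.9% and 32.6% of TPM) and Wdr35 (20.7% and 22.4%). A limit that must be passed in both libraries favours such genes. Of the 12, Traf3ip1 did not repeat, with 28.8% in replicate 1 and 12.9% in replicate 2. Outside the 12, Cc2d2a (1.16% and 16.3%), Evc2 (4.5% and 11.2%) and Ttc21b (8.46% and 12.8%) passed the limit in replicate 2 only. Ift88 held retained introns (14.3% and 14.8%) and a nonsense-mediated decay class (26.4% and 26.0%), which left 59.3% in its coding transcript in each library. Over all 43 the median share of TPM in protein-coding transcripts was 94.9% and 89.2%, against 98.2% in each library for the detected protein-coding genes. Among genes with several transcripts, 11 of 32 cilium genes (34.4%) had under 80% in both libraries, beside 29.4% of the detected genes. Cc2d2a is among the 11, with its leading transcript, which has no class, counted as not coding.

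**Figure D4:**
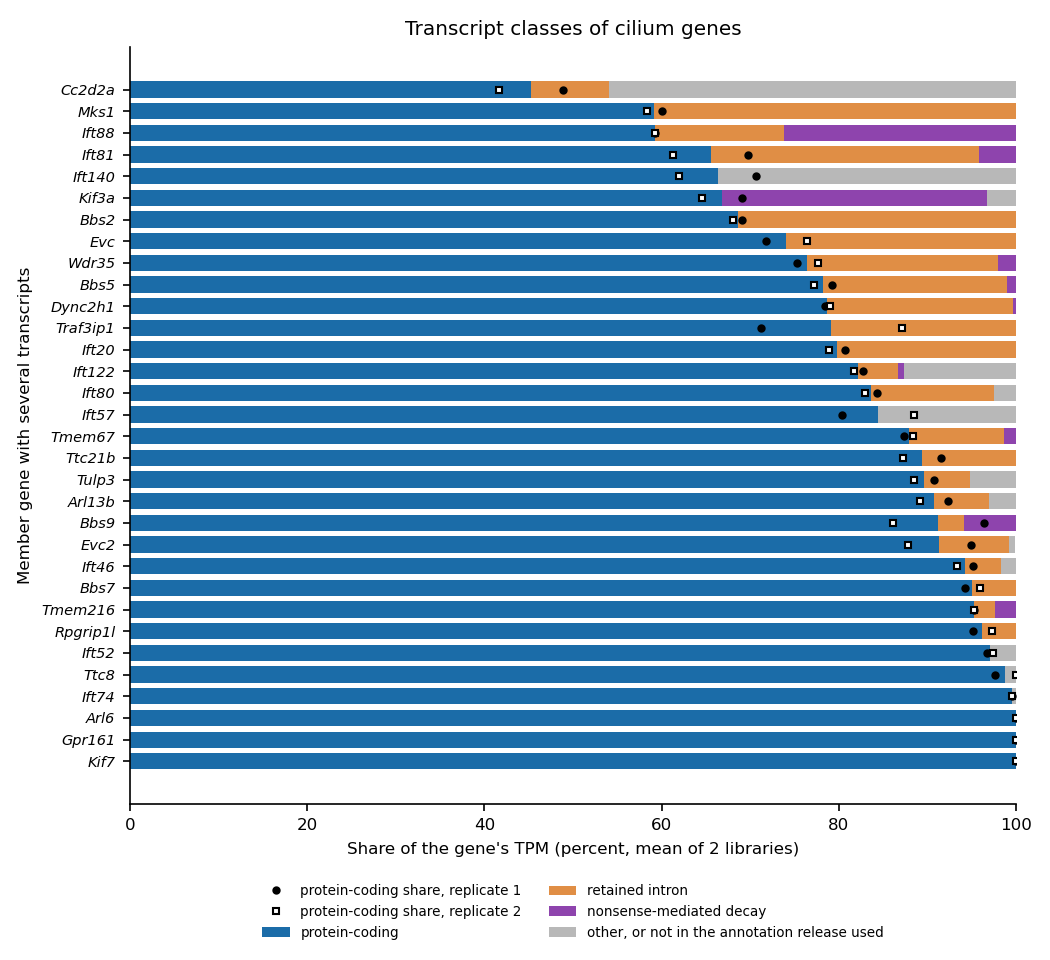
Share of each gene's TPM by annotated transcript class (x axis, percent, mean of 2 libraries) for the 32 cilium genes with several transcripts (rows); circles and squares give the protein-coding share in replicates 1 and 2. The share annotated as coding is lowest in Cc2d2a, Mks1 and Ift88, and the 2 libraries differ most in Traf3ip1. The leading transcript of Cc2d2a has no class in the annotation used and is not counted as coding, so its coding share may be higher.

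Several cilium genes share a start region or a stretch of DNA with another gene. For 7 of the 43 (16.3%), another protein-coding gene starts within 1000 bases on the opposite strand, pointing away, against 10.1% of the detected protein-coding genes. These were Ift20 with Tnfaip1 (29 bases apart), Ift46 with Arcn1 (63), Dync2h1 with Dcun1d5 (74), Ift122 with Mbd4 (99), Ift80 with Smc4 (168), Rpgrip1l with Fto (263) and Ift140 with Cramp1l (297). Levels within a pair could be far apart: Fto measured 82.14 and 75.46 TPM where Rpgrip1l measured 4.46 and 6.66. Smc4, a condensin subunit, measured 80.43 and 143.61 TPM, a log2 ratio of 0.84, beside 0.48 for Ift80. Evc and Evc2 themselves start 1605 bases apart on opposite strands of chromosome 5.

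Whether the counting used strand is not given in the sources used here, so counts in overlaps with a gene on the opposite strand are uncertain. The overlap of Evc with Crmp1 covers 3036 bases, and Crmp1, a neuronal gene, measured 316.05 and 145.21 TPM, more than Evc by far. Tmem216 overlaps Cpsf7 over 13789 bases (41.01 and 37.68 TPM), Ift140 overlaps Tmem204 over 25890 bases (10.77 and 10.98 TPM), and Bbs4 overlaps Adpgk over 2063 bases (28.98 and 32.45 TPM). Ift74 and Arl13b overlap genes below 1 TPM, Lrrc19 and Stx19.

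Other genes of the primary cilium, 59 in 5 lists, gave a like picture: 56 were detected in both libraries, 28 were above 0 in the count ratio and 28 below, and the median was 0.01. None was at least 1.5-fold higher in replicate 2 and 1 was at least 1.5-fold lower, where 4.03% and 9.4% of the 14385 genes were. The 1 was Ttc30b of IFT-B (8.01 and 5.38 TPM), which has near-identical copies that can share reads. Ttc30a2, Kif17 and Sstr3 were not detected. Among the other IFT and motor subunits Dynll1, a light chain shared with cytoplasmic dynein, was the highest at 1341.25 and 1462.95 TPM. The other transition zone list ran from Cep290 (1.58 and 2.48 TPM) to Iqcb1 (41.97 and 56.46 TPM). The other BBSome and chaperonin-like genes ran from Bbs10 (4.25 and 5.77 TPM) to Mkks (30.59 and 32.36 TPM). Of the other membrane genes Arl3, a GTPase that releases lipidated cargo, was the highest at 167.27 and 171.32 TPM.

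All 13 centriole and distal appendage genes were detected, from Ttbk2 (4.44 and 4.08 TPM), the kinase that starts cilium growth, to Odf2 (88.29 and 95.61 TPM). Their median ratio was 0.23, with 8 above 0 and 5 below. The Hedgehog pathway, which depends on the cilium, was detected in all 12 genes, with a median ratio of 0.01 and none 1.5-fold apart. Its lowest gene was the ligand Shh (2.41 and 2.45 TPM) and its highest the co-receptor Gas1 (77.69 and 66.49 TPM). Smo, the receptor that acts in the cilium and is named here after its values were seen, measured 37.68 and 40.61 TPM.

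The genes of motile cilia, which many ependymal and choroid plexus cells carry later, were lower. Of 21 axoneme genes of motile cilia (dynein arms, radial spokes and central pair), 11 were detected in both libraries. The share detected over all 21474 protein-coding genes was 58.8%. The median of the mean levels was 2.31 TPM for the 21 genes and 14.8 TPM for the 43 primary cilium genes. Summed over the 21, the level was 89.29 TPM in replicate 1 and 71.98 in replicate 2. The sums over the 43, a larger number of genes, were 1103.8 and 1157.7 TPM. Of the 13 with enough counts, 12 were below 0 in the ratio, with a median of -0.55, and 6 were at least 1.5-fold lower in replicate 2. Over all 14385 genes with enough counts, 9.4% were at least 1.5-fold lower. The lowest ratio of the 13 was that of Drc1, a dynein regulatory subunit, at 1.58 and 0.71 TPM (-1.20). Spag6l of the central pair measured 4.93 and 3.11 TPM (-1.09). Dnah9, a dynein heavy chain, measured 0.93 and 0.48 TPM, and Zmynd10, a dynein assembly factor, 3.75 and 2.2 TPM. These 4 were among the 6. Rsph1, a radial spoke protein, measured 6.25 and 3.53 TPM, and Dnai2, a dynein intermediate chain, 5.07 and 3.35 TPM, which completes them. Ccdc40, the highest of the list, was level at 23.84 and 24.05 TPM.

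Foxj1, the master regulator of motile cilia, was lower in replicate 2 too, at 23.26 and 12.77 TPM (log2 ratio -0.94). Where 9.4% of the 14385 genes were at least 1.5-fold lower, 3 of the 4 choroid plexus markers with enough counts were. Ttr measured 249.76 and 35.26 TPM. The other of the 4 markers, Otx2, named here after its values were seen, was higher in replicate 2 at 11.98 and 15.69 TPM (0.45). The part of choroid plexus cells in the motile cilium values was not tested. Of the RFX factors, Rfx4 was the highest at 53.27 and 41.52 TPM with a ratio of -0.46. Gmnc, a regulator of multiciliated cells, was the lowest of that list at 0.54 and 0.93 TPM and at least 1.5-fold higher in replicate 2 (0.69, with 58 counts in replicate 1). The difference between the primary and the motile lists was itself not tested.

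**Figure D5:**
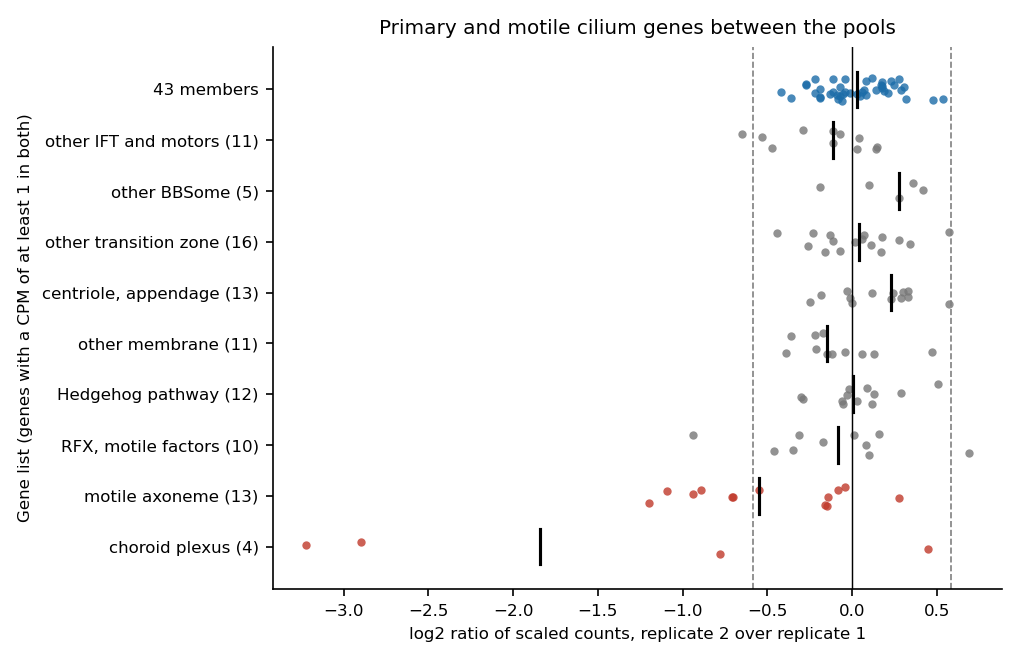
Log2 ratio of TMM-scaled counts, replicate 2 over replicate 1 (x axis), for genes of each list with a CPM of at least 1 in both libraries (rows, number of genes in brackets); points are genes, black bars list medians and dashed lines 1.5-fold. The 43 cilium genes lie around 0.03, and the motile axoneme genes, in red like the choroid plexus markers, around -0.55.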

How the data were processed

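Gene and transcript tables of both libraries were used. Per the file headers, the deposited columns are an expected count (estimated count), TPM, a posterior mean TPM, and FPKM; they refer to assembly mm10 and GENCODE M4, per the deposited notes. Not given in the sources used here are the aligner, the quantification program and the use of strand. Spike-ins took 13.03% and 7.82% of TPM.

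Identifiers without version were matched to GENCODE M21 on the same assembly (42462 of 43346 annotated genes, 98.0%). The 26248 tRNA and 97 spike-in rows stayed out of library sizes. For ratios, expected counts were rounded to whole numbers and scaled with edgeR 4.0.16 (R 4.3.3; TMM factors 1.003 and 0.9967, prior count 2). The biological coefficient of variation between the pools was 0.204. Intervals are conditional exact binomial intervals (95%). Levels compared on a log scale are log2(TPM + 0.1). No sample was dropped. The ratios were tested on simulated data with known changes. Tables and figures were made in Python 3.11.15 (pandas 2.3.3, numpy 2.4.6, matplotlib 3.10.9, scipy 1.17.1).

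The genes and lists were chosen with earlier results of these data known. Names were taken from all 43 members and, in the other lists, from the genes 1.5-fold apart and the highest and lowest, not all of which are named. The lists covered other IFT and motor subunits, other BBSome and chaperonin-like genes, other transition zone and inversin genes, centriole and distal appendage genes, other ciliary membrane genes, the Hedgehog pathway, RFX and motile ciliogenesis factors, the motile axoneme, and markers of hindbrain, progenitors, neurons, choroid plexus, muscle and heart, red blood cells, endothelium, macrophages, mesenchyme and surface ectoderm. The summed TPM of the last 5 was 12380 and 14240, 131.2 and 154.4, 60.5 and 39.63, 612.9 and 519.8, and 101.5 and 174.6 in replicates 1 and 2. Progenitor markers summed to 2424 and 2022. Alternatives were other pseudocounts, prior counts, thresholds and filters, FPKM, posterior mean TPM, scaling by DESeq2 1.42.0 size factors, by spike-ins or by total count, 1 library alone, and the stricter motif.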

Additional observations from a re-analysis of the deposited data

How the results depend on the processing

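Of 109 alternatives to the main values, 22 moved it and 87 did not, a count having moved when it changed by over 1.5 times and another value when it changed by over the SD of the 2 libraries (for the median ratio, over the typical counting error). Within that limit, 42 of the 43 were detected at an FPKM of 1 and 38 at a TPM of 5, and 49 to 58 of the other cilium genes were detected under the other thresholds. Scaling to the spike-ins moved most: it shifted the median ratio of all 14385 genes by 0.82 (log2), that of the 43 cilium genes to 0.85, and put 39 of them and 47 of the other cilium genes at least 1.5-fold higher in replicate 2, with 0 of the others lower. With it, 75.5% of all tested genes were 1.5-fold higher, and relative to that shift 0 of the 43 were apart in either direction. The plain TPM ratio gave a median of 0.17, 1 cilium gene higher (Ift74), and 2 of the other cilium genes higher and 0 lower; with no filter on low counts 2 of those were lower.

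The median level of the 43 relative to detected protein-coding genes was -0.40 (log2). It was -0.52 in FPKM and 1.89 against all protein-coding genes, detected or not. For FPKM the comparison genes were redrawn at an FPKM of at least 1, a stricter limit than a TPM of 1. FPKM keeps the order of genes within a library, so its shifts reflect the changed comparison genes. They are not changes in the cilium genes. In FPKM the motors moved from -0.02 to -0.14, the BBSome from -0.45 to -0.57 and the transition zone from -0.53 to -0.65; with posterior mean TPM the BBSome was at -0.37 and the transition zone at -0.49, and with pseudocounts of 1 and 0.01 the latter was at -0.51 and -0.54. With either library alone the BBSome was between -0.50 and -0.47. The median share of the leading transcript was 72.1%, and 77.1% and 73.6% with 1 library alone. The motif was found in 9 genes, in 3 in its stricter form and in 5 before the start. Per gene, posterior mean TPM moved the level of 8 of the 43 by more than their SD. FPKM, which keeps the order of genes within a library, moved that of all 43, a move that the change of unit brings by itself. Leaving out a library was not possible for ratios, which need both. No paired analysis was possible because there is 1 group. Depth limited none of the 43 detections.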
